A study of Homo sapiens with 4 samples.

Results

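The genes described here are 34 direct targets and regulators of the p53 transcription factor, chosen by symbol from general knowledge of the pathway and matched to the Ensembl gene identifiers of the count table, out of 60880 genes counted. The rule used no measured value, but earlier results of these data were known when the genes were chosen. By role, 4 genes act in feedback on p53 and 7 form the death receptor group. That group holds death receptors, related receptors with decoys among them, and a death-domain adaptor. A further 6 genes act in mitochondrial apoptosis, 5 in metabolism and redox control, 6 in growth control and repair, and 6 are other effectors.

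RNA-seq libraries were prepared from LNCaP95, a subline of the LNCaP prostate cancer cell line that grows without androgen (wild type for UGT2B17), and from LN95(KO), the same line after CRISPR knockout of UGT2B17, an enzyme that attaches glucuronic acid to androgens, with 2 libraries in each group. Both lines were grown in RPMI1640 medium with charcoal-stripped serum, which lacks steroid hormones, and neither received a treatment before RNA extraction. The comparison asked which transcripts differed once UGT2B17 was lost. The sources used here did not give the number of knockout clones and did not say whether libraries of a group came from separate cultures, so p-values measure only the spread between these libraries, and the loss of UGT2B17 cannot be told apart from differences between the cell clones or passages compared.

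p53 is a transcription factor that is held at a low level by ubiquitin ligases and accumulates when DNA is damaged or growth is disturbed. It binds elements made of a pair of 10-base half-sites and raises transcription of genes that stop the cell cycle, repair DNA, change metabolism or start apoptosis, the last both through death receptors at the cell surface and through mitochondria. Several of its targets, among them MDM2, in turn limit p53 itself. LNCaP is known as a line with wild-type p53.

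Each library held between 17330338 and 18813193 reads assigned to genes, and 15626 genes had enough reads to be tested, among them all 34 p53 genes. UGT2B17 itself had 2788 and 2748 reads in LNCaP95 against 21 and 20 in LN95(KO), and its log2 fold change was -7.04 (SE 0.10, edgeR quasi-likelihood test, adjusted p = 1.18e-18). Reads that did not align made up 3.85% and 3.96% of the LNCaP95 libraries but 8.05% and 7.71% of the LN95(KO) libraries, and the part of this in the results was not tested. The 6 prostate luminal markers summed to 2701 to 2714 CPM (reads relative to library depth, scaled by TMM) in LNCaP95 and 2701 to 2760 CPM in LN95(KO), with every one of them detected in all 4 libraries. The 3 basal markers summed to 0.163 to 0.164 CPM against 1.02 to 1.26 CPM, nearly all of it KRT14, the 3 neuroendocrine markers to 2.40 to 2.44 against 2.30 to 2.43 CPM, the 4 fibroblast markers to 29.2 to 29.9 against 32.6 to 35.7 CPM with DCN at 0 in every library, and the 4 leukocyte markers to 0.108 to 0.109 against 0.11 to 0.226 CPM with CD3E and CD68 at 0 in every library. The part of the basal and fibroblast markers in the results below was not tested.

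Stretches of DNA whose letters match the p53 element are shown first, for genes whose values are discussed below. The 2000 bases on each side of every start site were searched for the p53 element consensus, a 20-base motif of 2 adjoining 10-base half-sites, allowing up to 2 mismatches. The motif is a palindrome, so both strands were covered. The start site was that of the canonical transcript in GENCODE, or, for FAS, the 5′ end of the gene, and need not be the outermost end of the gene. A stretch was labelled exon where it touched an exon of any annotated transcript of the gene. Such a stretch need not lie in an exon of the canonical transcript. Sequences are from the human GRCh37 genome, written 5′ to 3′ on the strand of the gene, with the 4-base core of each half-site in capitals. The first 3 belong to genes that were higher in LN95(KO), then follow 2 that were lower, then genes of the feedback loop and of growth control for comparison.
EDA2R, chrX:65858555-65858574, minus strand, intron, 346 bases downstream of the start site, 1 mismatch: gaaCATGcctggaCGTGtcc
FAS, chr10:90751066-90751085, plus strand, exon, 652 bases downstream of the start site, 2 mismatches: ggaCAAGccctgaCAAGcca
BAX, chr19:49458470-49458489, plus strand, exon, 338 bases downstream of the start site, 2 mismatches: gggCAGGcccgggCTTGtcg
SPATA18, chr4:52918123-52918142, plus strand, intron, 653 bases downstream of the start site, 2 mismatches: ggaCATGtgtgtaCATGccc
ZMAT3, chr3:178787976-178787995, minus strand, intron, 1602 bases downstream of the start site, 0 mismatches: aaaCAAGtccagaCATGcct
MDM2, chr12:69202703-69202722, plus strand, intron, 746 bases downstream of the start site, 2 mismatches: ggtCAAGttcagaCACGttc
CCNG1, chr5:162864932-162864951, plus strand, intron, 331 bases downstream of the start site, 1 mismatch: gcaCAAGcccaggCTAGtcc
GADD45A, chr1:68152458-68152477, plus strand, intron, 1574 bases downstream of the start site, 1 mismatch: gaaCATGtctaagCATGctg

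A match with up to 2 mismatches was found in the window of 17 of the 34 genes (50%), against 1136 of 12597 protein-coding genes tested (9.02%). With up to 1 mismatch the counts were 4 of 34 (11.76%) against 0.64% of all windows, and the only one of the 34 with an exact match was ZMAT3. The 17 genes held 19 matches, of which 10 lay in an intron, 3 in an exon and 6 upstream. The change in LN95(KO) was then set beside the presence of a match. Among the 17 genes with a match 8 rose and 2 fell, with a median log2 fold change of 0.16, and among the 17 without a match 6 rose and 3 fell, with a median of 0.13. Over all tested genes 29.8% rose and 30.1% fell. No test compared these counts, and the changes of other genes with a match were not examined. Rose and fell are used throughout for genes at an adjusted p under 0.05 in the edgeR quasi-likelihood test, at any fold. EDA2R and FAS, the highest of the 34 by fold, and SPATA18 and ZMAT3, which both fell, all held a match, whereas SUSD6 and TNFRSF10C, which also fell, did not within this window. A match is a description of the letters and was not tested as a binding site.

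**Figure D1:**
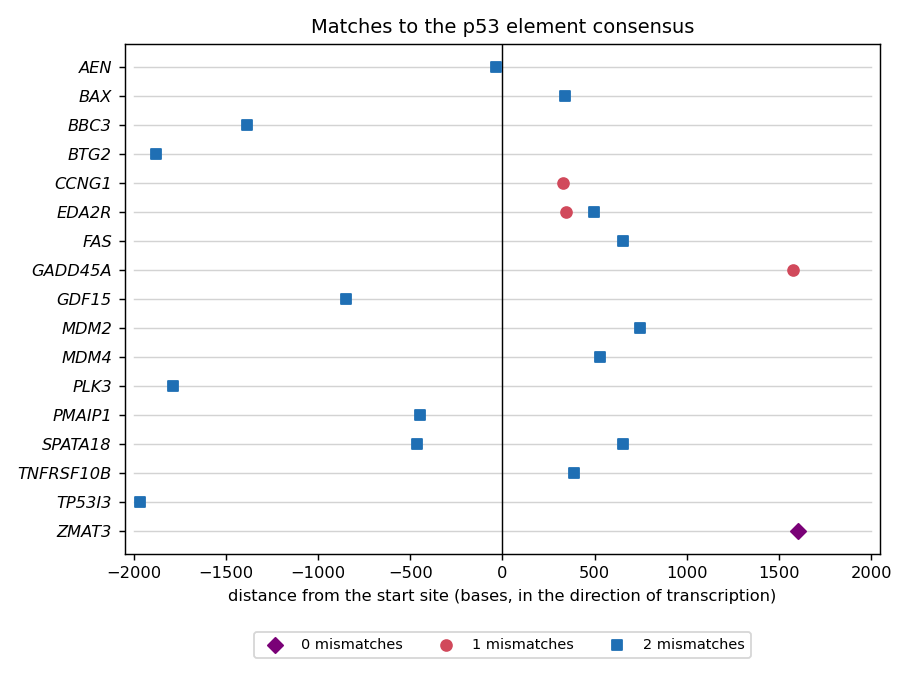
Position of each match to the p53 element consensus (x axis, bases from the start site in the direction of transcription, 2000 on each side) in the 17 genes that held one (y axis), with the marker giving the number of mismatches. The 19 matches lie on both sides of the start site, and ZMAT3, 1602 bases downstream of the start site, is the exact one.

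Across the 34 genes, most changes were small and more of them were upward. With the rule of the study, an adjusted p under 0.05 with a fold over 2, 5 genes were called (14.7%), against 18.0% of all tested genes, so that the 34 genes were not called more often than the rest. Of these, EDA2R and FAS were higher in LN95(KO), where 8.86% of all tested genes were higher, and TNFRSF10C, SPATA18 and SUSD6 were lower, where 9.13% of all tested genes were lower. Without the fold criterion 19 genes changed (55.9%) against 59.8% of all tested genes, 14 of them upward (41.2% against 29.8% of all tested genes) and 5 downward (14.7% against 30.1%). The fitted log2 fold change was above 0 for 23 of the 34 genes (67.6%), against 49.4% of all tested genes, and its median was 0.15 against -0.01. The median size of the change was smaller, 0.29 on the log2 scale against 0.37 over all tested genes. The libraries of the groups did not overlap in CPM for 28 genes (82.4%), against 79.8% of all tested genes, and overlapped for BBC3, PMAIP1, TIGAR, SESN1, RRM2B and BTG2. No set test was run on these counts.

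**Figure D2:**
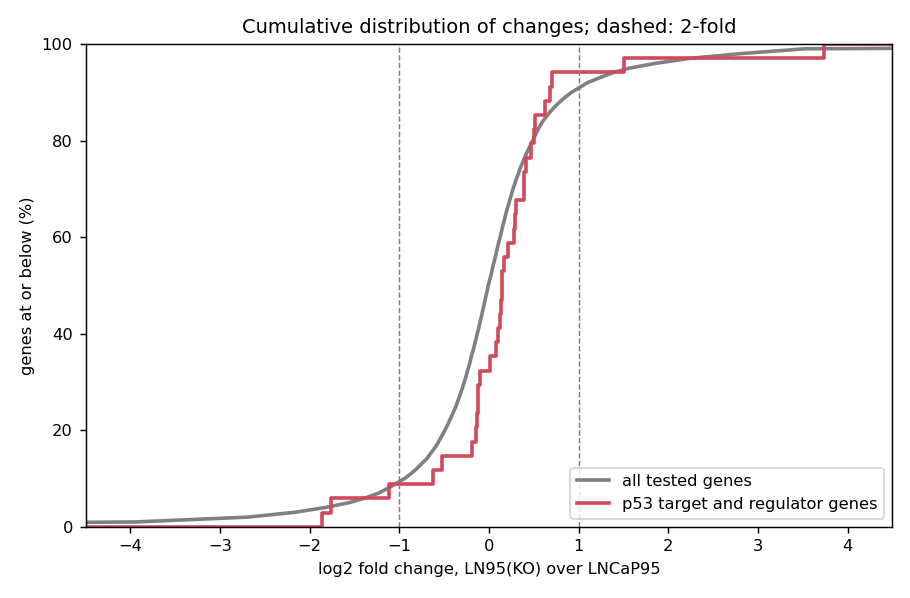
Cumulative share of genes (y axis, percent) at or below each log2 fold change of LN95(KO) over LNCaP95 (x axis) for the 34 p53 genes and for all 15626 tested genes, with dashed lines at a 2-fold change. The curve of the 34 genes lies to the right of that of all genes around 0, with a median of 0.15 against -0.01. It meets that curve near the lower 2-fold line. On the upper side it crosses before the 2-fold line and stands above the curve of all genes at that line.

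**Figure D3:**
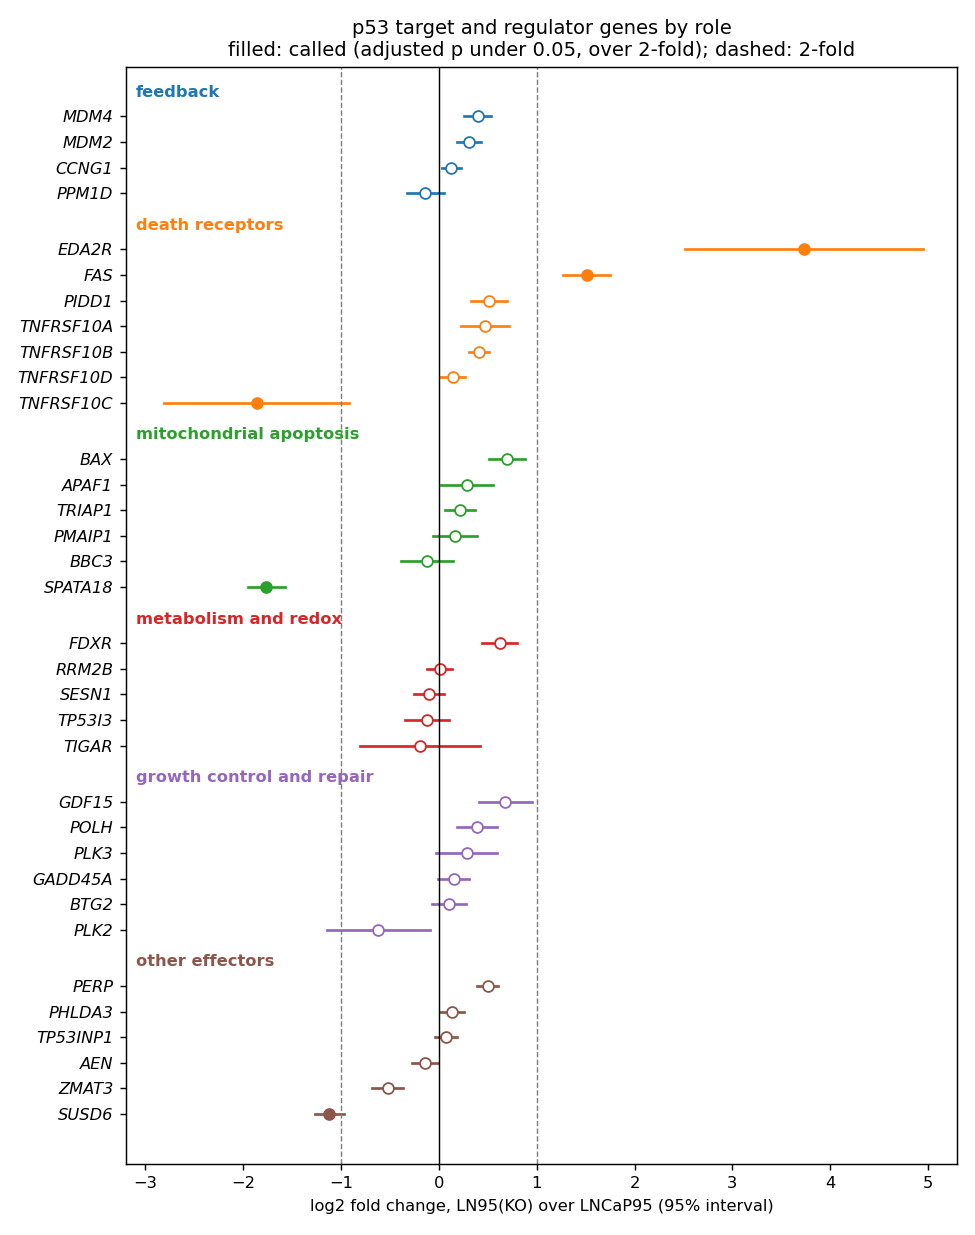
Fitted log2 fold change of LN95(KO) over LNCaP95 (x axis) with its 95% interval for each of the 34 genes (y axis), grouped by role. Filled points mark the 5 called genes, EDA2R and FAS to the right of the dashed 2-fold lines and TNFRSF10C, SPATA18 and SUSD6 to the left.

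The death receptor group held 3 of the 5 called genes (3 of 7, 42.9%, against 18.0% of all tested genes), namely FAS, EDA2R and the decoy TNFRSF10C. It had the highest median of the 6 role groups, a log2 fold change of 0.47. For EDA2R and TNFRSF10C only the higher group reached the minimum of the filter on low counts in both libraries. The share called, and the shares that rose and fell, were therefore not read as traits of these genes. Of the 7 genes, 5 rose (71.4% against 29.8% of all tested genes), 1 fell (14.3% against 30.1%) and 1 did not pass the test. FAS, the receptor for FAS ligand, had 135 and 143 reads in LNCaP95 and 354 and 420 in LN95(KO). Both LN95(KO) libraries were well above both LNCaP95 libraries, at 21.5 ± 2.13 against 7.56 ± 0.349 CPM (mean ± SD, n = 2 each, as for all CPM values below). The difference was 2.84-fold, a log2 fold change of 1.51 with a 95% interval of 1.27 to 1.75 (SE 0.11, edgeR quasi-likelihood test, adjusted p = 4.27e-09). FAS lies on chromosome 10 (GRCh37, 90750414 to 90775542, plus strand), and 25.74% of its exon bases are shared with other genes on the opposite strand, ACTA2 among them. In a count made without strand, reads in such bases cannot be assigned to 1 gene. Between 9.82% and 10.4% of the reads of each library were set aside as ambiguous between genes.

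EDA2R encodes the receptor for the ectodysplasin A2 ligand and lies on the X chromosome (65815479 to 65859140, minus strand). It was nearly silent in LNCaP95, with 1 and 2 reads, and had 22 and 20 reads in LN95(KO), the only group through which it passed the filter on low counts. The groups did not overlap, and after scaling for depth the pooled reads were 14.3 times as many in LN95(KO), with an exact 95% counting interval of 4.58 to 72.2. The fitted log2 fold change was 3.73 (SE 0.57, edgeR quasi-likelihood test, adjusted p = 2.6e-05). In LN95(KO) the gene still reached only 1.17 ± 0.104 CPM.

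The receptors for TRAIL (the ligand encoded by TNFSF10) form a cluster on chromosome 8. TNFRSF10A and TNFRSF10B carry a death domain and pass the signal on. TNFRSF10B, the more abundant, had 2944 and 2963 reads in LNCaP95 and 3823 and 3852 in LN95(KO), and rose 1.33-fold (log2 0.41, SE 0.05, edgeR adjusted p = 1.18e-06), and TNFRSF10A had 233 and 188 against 282 and 289 reads, a 1.39-fold rise (log2 0.47, SE 0.11, edgeR adjusted p = 0.00188). Without LNCaP95 replicate 2 the rise of TNFRSF10A was 0.33 on the log2 scale and did not pass (edgeR adjusted p = 0.054). For both, every LN95(KO) library was above every LNCaP95 library.

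TNFRSF10C and TNFRSF10D are decoys that bind TRAIL without passing on a full death signal. TNFRSF10C had 26 and 23 reads in LNCaP95 and 10 and 3 in LN95(KO), so it was low in every library and lower in both LN95(KO) libraries, which differed from each other by more than the LNCaP95 libraries did. Its pooled reads were 3.69 times as many in LNCaP95 (exact 95% counting interval 1.97 to 7.40), and the fitted log2 fold change was -1.86 (SE 0.45, edgeR adjusted p = 0.00174). Without LN95(KO) replicate 4 the value was -1.22 with an edgeR adjusted p = 0.0534, without LN95(KO) replicate 3 it was -2.96, and by DESeq2 the adjusted p was 0.0557, so this call rests on few reads and on 1 library. TNFRSF10D had 1292 and 1299 against 1431 and 1361 reads and did not pass the test (log2 0.14, 95% interval 0.01 to 0.27, edgeR adjusted p = 0.0516). No 50-base window of a transcript of any of these 4 genes occurred in another of them (0.0%), and 33.01% of the exon bases of TNFRSF10C and 16.74% of those of TNFRSF10A are shared with overlapping genes.

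PIDD1 encodes a death-domain adaptor that activates caspase-2. It had 344 and 340 reads in LNCaP95 and 450 and 503 in LN95(KO), and rose 1.42-fold with no overlap (log2 0.51, SE 0.09, edgeR adjusted p = 7.85e-05).

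The ligands and the signalling genes next to these receptors were counted from a separate list of 12 genes, of which 11 were tested. Of these, 2 were called (18.2% against 18.0% of all tested genes), 3 rose (27.3% against 29.8%) and 2 fell (18.2% against 30.1%). The median log2 fold change was 0.09. Of the 3 ligands, TNFSF10 had 0 and 2 reads in LNCaP95 and 16 and 21 in LN95(KO). Pooled reads stood at a ratio of 18.9 (exact 95% counting interval 4.88 to 162), and the fitted log2 fold change was 4.08 (SE 0.70, edgeR adjusted p = 8.13e-05). The fitted value was 7.23 without LNCaP95 replicate 2 and 3.16 without LNCaP95 replicate 1, since there were so few reads in that group. EDA had 258 and 296 against 298 and 320 reads (log2 0.19, edgeR adjusted p = 0.124), and FASLG had 0 reads in all 4 libraries.

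CASP10, a caspase recruited to death receptors, was the other called gene, with 8 and 4 reads in LNCaP95 and 55 and 84 in LN95(KO) (log2 3.54, SE 0.36, edgeR adjusted p = 1.93e-07). Both LN95(KO) libraries lay far above both LNCaP95 libraries. Like TNFSF10, CASP10 passed the filter on low counts only through LN95(KO). The related CASP8 had 488 and 495 against 622 and 687 reads, a 1.36-fold rise (edgeR adjusted p = 7.74e-05). BID, which carries the caspase-8 signal to mitochondria, had 388 and 387 against 249 and 276 reads and was 1.44-fold lower (edgeR adjusted p = 0.000122), and RIPK1, a kinase of receptor complexes, was 1.2-fold lower (edgeR adjusted p = 0.0124). The adaptor FADD (edgeR adjusted p = 0.147) and the inhibitor CFLAR (edgeR adjusted p = 0.555) did not pass the test.

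**Figure D4:**
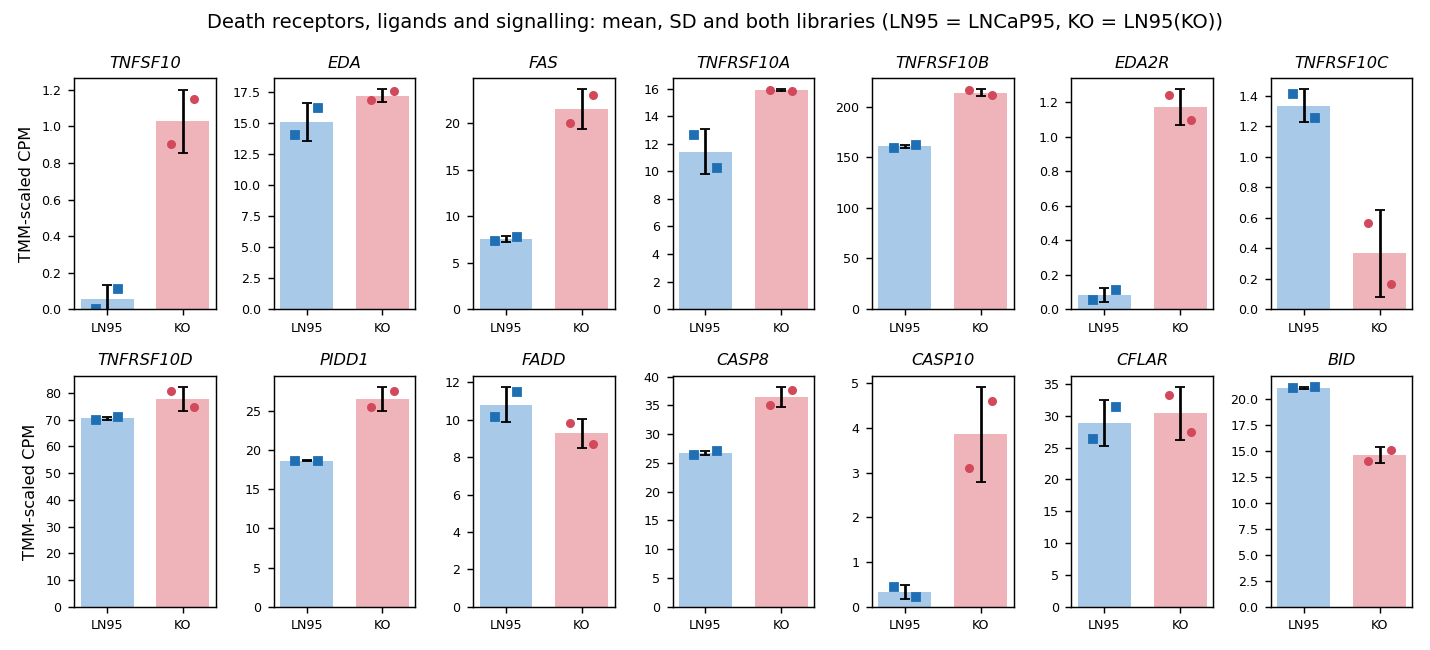
TMM-scaled CPM (y axes, each starting at 0) of 14 death receptor, ligand and signalling genes in LNCaP95 (labelled LN95) and LN95(KO) (labelled KO), with bars for the mean, error bars for the SD (n = 2) and points for both libraries. FAS, EDA2R, TNFSF10 and CASP10 stand higher in both LN95(KO) libraries, and TNFRSF10C and BID stand lower in both.

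Of the 6 mitochondrial apoptosis genes 2 rose (33.3% against 29.8% of all tested genes), 1 fell (16.7% against 30.1%) and 3 did not pass the test. Their median log2 fold change was 0.19. It became 0.04 when LN95(KO) replicate 4 was left out and 0.33 when replicate 3 was. SPATA18, which encodes a protein of mitochondrial quality control, fell the most of the 34 genes that had over 100 reads in a library. It had 648 and 683 reads in LNCaP95 and 191 and 192 in LN95(KO), so the libraries within a group were nearly alike and the groups lay far apart, at 36.2 ± 1.54 against 10.7 ± 0.191 CPM. It was 3.40-fold lower in LN95(KO), with a log2 fold change of -1.76 and a 95% interval of -1.96 to -1.57 (SE 0.09, edgeR quasi-likelihood test, adjusted p = 2.3e-11). The gene lies on chromosome 4 (52917470 to 52963465, plus strand).

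BAX, which forms pores in the mitochondrial outer membrane, had 421 and 441 reads in LNCaP95 and 619 and 751 in LN95(KO). It rose 1.62-fold with no overlap, short of the 2-fold rule (log2 0.70, 95% interval 0.52 to 0.88, edgeR adjusted p = 2.43e-06). TRIAP1, a small protein that protects against apoptosis, had 815 and 752 against 822 and 956 reads and rose 1.16-fold (edgeR adjusted p = 0.0191), which held in 6 of 9 alternative settings and not without LN95(KO) replicate 4 (log2 0.13, edgeR adjusted p = 0.181). The BH3-only genes PMAIP1 and BBC3 did not pass the test. PMAIP1 had 443 and 439 against 409 and 558 reads (log2 0.16, 95% interval -0.07 to 0.39, edgeR adjusted p = 0.205). BBC3 had 224 and 187 against 179 and 190 reads (log2 -0.12, 95% interval -0.38 to 0.14, edgeR adjusted p = 0.412). For both of these the libraries of the groups overlapped. APAF1, the scaffold of the apoptosome, had 162 and 186 against 195 and 220 reads (log2 0.29, edgeR adjusted p = 0.0573).

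In a list of 22 further genes of the BCL2 family, caspases and their inhibitors, 21 were tested, 9 rose (42.9% against 29.8% of all tested genes) and 7 fell (33.3% against 30.1%), and 1 was called (4.76% against 18.0%). The called gene was HRK, a BH3-only gene, with 206 and 187 reads in LNCaP95 and 52 and 50 in LN95(KO), 3.76-fold lower without overlap (log2 -1.91, SE 0.16, edgeR adjusted p = 1.36e-08). The median of the list was 0.03 on the log2 scale.

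The feedback genes, which restrain p53, moved by less than 2-fold. Of the 4, 3 rose (75% against 29.8% of all tested genes), 0 fell (against 30.1%) and 1 did not pass the test. Their median log2 fold change was 0.21. MDM2, the main ubiquitin ligase of p53 and itself a target, had 1375 and 1312 reads in LNCaP95 and 1545 and 1697 in LN95(KO). Both LN95(KO) libraries were higher, but by only 1.23-fold (log2 0.30, 95% interval 0.18 to 0.43, edgeR adjusted p = 0.000232), at 90.1 ± 4.03 against 73.1 ± 2.03 CPM. MDM4, the partner of MDM2 that masks the activation domain of p53, had 856 and 870 against 1117 and 1100 reads and rose 1.31-fold (log2 0.39, SE 0.06, edgeR adjusted p = 3.95e-05). CCNG1, a cyclin that acts with a phosphatase on MDM2, had 7251 and 7086 against 7343 and 7954 reads and rose 1.09-fold (edgeR adjusted p = 0.0291), which held in 5 of 9 alternative settings. PPM1D, a phosphatase that switches off p53 and its kinases, was the one that did not pass the test, with 383 and 369 against 319 and 349 reads (log2 -0.14, 95% interval -0.33 to 0.05, edgeR adjusted p = 0.203). None of the 4 was called, against 18.0% of all tested genes. In a list of 21 other ubiquitin ligases and cofactors of p53, 0 were called against 18.0% of all tested genes, and 6 rose (28.6% against 29.8%) and 7 fell (33.3% against 30.1%) at under 2-fold, all by the same edgeR test, with a median of 0.07.

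The metabolism and redox genes had the smallest median size of change of the role groups, 0.12 on the log2 scale. Of the 5, 1 rose (20% against 29.8% of all tested genes), 0 fell (against 30.1%) and 4 did not pass the test. Their median signed value was -0.10. That median was close to 0 when an LNCaP95 library was left out, 0.00095 without replicate 1 and -0.03 without replicate 2. FDXR, a mitochondrial reductase of the steroid and iron-sulphur cluster pathways, had 384 and 396 reads in LNCaP95 and 546 and 628 in LN95(KO), and rose 1.54-fold without overlap (log2 0.62, SE 0.08, edgeR adjusted p = 6.52e-06). RRM2B, the p53-induced ribonucleotide reductase subunit, was nearly level, with 1328 and 1329 against 1328 and 1281 reads (log2 0.01, 95% interval -0.12 to 0.13, edgeR adjusted p = 0.929). SESN1, a stress sensor that restrains mTORC1, had 741 and 809 against 677 and 736 reads (log2 -0.10, edgeR adjusted p = 0.244), and TP53I3, a quinone oxidoreductase, had 254 and 243 against 223 and 223 reads (log2 -0.12, edgeR adjusted p = 0.334). TIGAR, which lowers glycolytic flux, had 41 and 28 against 23 and 36 reads, too few for a firm statement (log2 -0.19, 95% interval -0.81 to 0.42, edgeR adjusted p = 0.588).

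Of the 6 growth control and repair genes 2 rose (33.3% against 29.8% of all tested genes) and 1 fell (16.7% against 30.1%). None was called, against 18.0% of all tested genes, and the median log2 fold change was 0.22. GDF15, a secreted stress cytokine, was the most abundant of the 34 genes per kilobase of exon in both groups. It had 9050 and 8379 reads in LNCaP95 and 14897 and 12308 in LN95(KO), and its 1.60-fold rise had a wide interval because the LN95(KO) libraries differed from each other (log2 0.68, 95% interval 0.41 to 0.95, edgeR adjusted p = 0.0025). POLH, a polymerase that copies past DNA damage, had 391 and 382 against 440 and 553 reads and rose 1.31-fold (log2 0.39, edgeR adjusted p = 0.00207), a value of 0.25 without LN95(KO) replicate 4 (edgeR adjusted p = 0.0412). PLK2, a kinase of the cell cycle stress response, had 44 and 41 against 25 and 29 reads (log2 -0.62, SE 0.25, edgeR adjusted p = 0.0418), and this fall held in 2 of 9 alternative settings. PLK3 had 102 and 102 against 118 and 125 reads (edgeR adjusted p = 0.108). GADD45A, a growth arrest gene, had 531 and 524 against 581 and 563 reads (edgeR adjusted p = 0.102), and BTG2, an antiproliferative cofactor, had 714 and 651 against 647 and 788 reads (edgeR adjusted p = 0.296). For PLK3 and GADD45A the LN95(KO) libraries were the higher ones without passing the test, and for BTG2 the groups overlapped.

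The other effectors were split, with 1 rising (16.7% against 29.8% of all tested genes), 2 falling (33.3% against 30.1%) and 3 not passing the test. Their median log2 fold change was -0.03, and 0.02 when libraries were scaled by their totals. SUSD6, a membrane protein that slows growth after DNA damage, had 1107 and 1082 reads in LNCaP95 and 479 and 506 in LN95(KO). Libraries of a group were close together and the groups lay far apart, at 59.5 ± 0.638 against 27.4 ± 0.470 CPM. It was 2.17-fold lower (log2 -1.12, 95% interval -1.26 to -0.98, edgeR quasi-likelihood test, adjusted p = 2.2e-10), close to the 2-fold line. The gene spans 70078313 to 70181861 on the plus strand of chromosome 14.

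ZMAT3, an RNA-binding protein that acts in splicing, held the exact match printed above. It fell 1.44-fold, with 740 and 815 reads in LNCaP95 against 529 and 528 in LN95(KO) (log2 -0.52, SE 0.08, edgeR adjusted p = 1.38e-05). PERP, a protein of cell junctions linked to apoptosis, had 2855 and 2717 against 3877 and 3821 reads and rose 1.41-fold (log2 0.50, SE 0.05, edgeR adjusted p = 1.76e-07). Both genes were without overlap between the groups. AEN, an exonuclease of apoptotic cells, had 981 and 1009 against 861 and 905 reads (edgeR adjusted p = 0.0674). PHLDA3, an inhibitor of AKT, had 1428 and 1418 against 1465 and 1587 reads (edgeR adjusted p = 0.0506), and TP53INP1, an autophagy and stress protein, had 1719 and 1749 against 1742 and 1832 reads (edgeR adjusted p = 0.233).

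**Figure D5:**
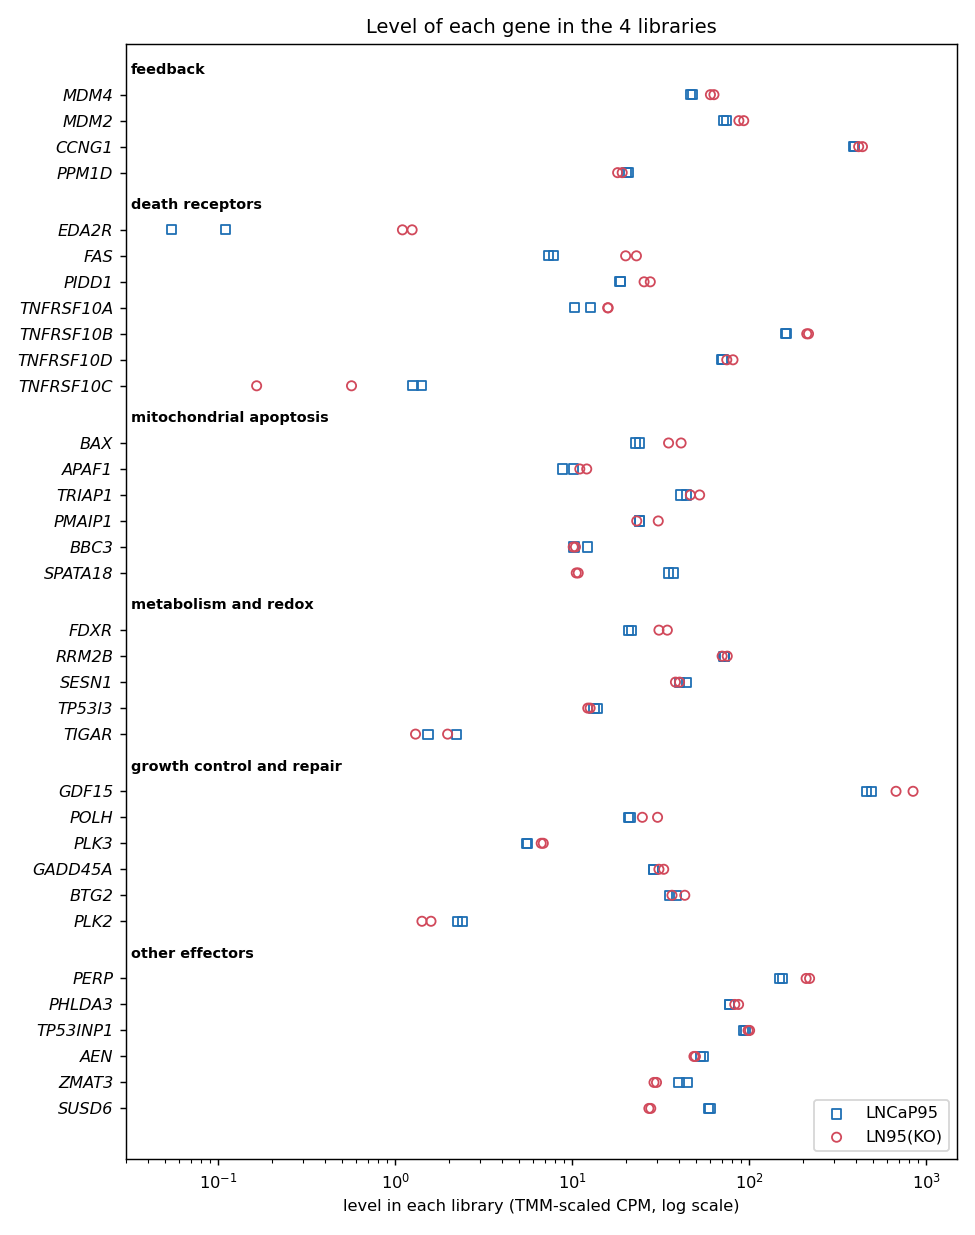
Level of each of the 34 genes (y axis, grouped by role) in the 4 libraries (x axis, TMM-scaled CPM on a log scale), squares for LNCaP95 and circles for LN95(KO). The symbols of the groups are apart for 28 genes, widest for EDA2R, and mixed for 6, among them RRM2B and BBC3.

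Ordered by level per kilobase of exon, 12 of the 34 genes kept their rank and 22 had another, 9 of them by 3 or more places. Exon lengths included bases shared with other genes, in which reads could be set aside as ambiguous. Per kilobase of exon, GDF15 was at 227 CPM in LNCaP95 and 363 in LN95(KO), followed in both groups by CCNG1 at 126 and 137. FAS moved from rank 28 to rank 17 of 34 as its level per kilobase went from 2.12 to 6.04 CPM. SPATA18 moved the other way, from rank 17 to 27 (7.28 to 2.14 CPM per kilobase), and SUSD6 from rank 13 to 22 (10.2 to 4.70 CPM per kilobase). At the bottom, EDA2R went from 0.0226 to 0.323 CPM per kilobase and TIGAR from 0.199 to 0.173. In bulk RNA, fewer cells that express a gene and less RNA per cell cannot be told apart.

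A list of 42 further p53 targets also held genes that moved in both directions. It was chosen by symbol like the first, with earlier results of these data known. Of the 38 tested, 16 rose (42.1% against 29.8% of all tested genes) and 11 fell (28.9% against 30.1%), 5 were called (13.2% against 18.0%), and the median log2 fold change was 0.12. The 4 called upward were the repair gene DDB2, the ceramidase gene ACER2, SFN and KITLG. DDB2, which recognises ultraviolet damage, had 542 and 541 reads in LNCaP95 and 1043 and 1235 in LN95(KO) (log2 1.10, edgeR adjusted p = 1.19e-09), and ACER2 had 84 and 92 against 189 and 181 reads (log2 1.10, edgeR adjusted p = 3.73e-06). Both were higher in each LN95(KO) library.

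SFN, the 14-3-3 sigma protein of cell cycle arrest, had 5 and 2 against 22 and 22 reads (log2 2.64, edgeR adjusted p = 0.00016), a value of 3.41 without LNCaP95 replicate 1. KITLG, the ligand of the KIT receptor, had 8 and 13 against 21 and 43 reads (log2 1.63, edgeR adjusted p = 0.00213) and was not called without LN95(KO) replicate 4 (log2 1.05, edgeR adjusted p = 0.119). The single gene called downward was CYFIP2, a regulator of the actin cytoskeleton, with 1828 and 1736 reads in LNCaP95 against 99 and 104 in LN95(KO), 17.1-fold lower (log2 -4.10, SE 0.08, edgeR adjusted p = 8.51e-17). It had the largest fall of the p53 genes described here, including the 34 above. Over all 4 additional lists, 97 genes of which 91 were tested, 6 were called higher and 2 lower (8.79% against 18.0% of all tested genes). At any fold 34 rose (37.4% against 29.8% of all tested genes) and 27 fell (29.7% against 30.1%). For TNFSF10, CASP10, SFN and KITLG, LN95(KO) was the only group in which both libraries reached the minimum of the low-count filter.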

How the data were processed

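Poly(A) RNA was sequenced on a DNBseq platform. Per the labels and the study's methods, alignment to hg19 was done by the authors with HISAT2 2.1.0, and reads were counted per GENCODE 29 gene with htseq 0.11.2 without regard to strand, and the deposited values are raw read counts. Of 60880 gene identifiers, 59858 matched a symbol. Here counts were fitted with edgeR 4.0.16 (R 4.3.3; TMM scaling, filterByExpr minimum count 10, quasi-likelihood test, Benjamini-Hochberg adjustment over 15626 genes, 4 libraries, no covariate). DESeq2 1.42.0, other scalings, other filters, glmTreat and leaving out each library were alternatives. On simulated counts for 15480 genes, 92 of 100 genes changed 1.5-fold and 100 of 100 changed 3-fold passed the adjusted p. The changed genes were drawn only from those with more reads, and every gene was given the same spread between libraries. These rates therefore do not cover genes with few reads or a wider spread. The SE is the log2 fold change over the square root of F, CPM are TMM-scaled, and counting intervals (95%) cover counting error only. Gene positions are from GENCODE 44 on GRCh37. With 2 libraries a group, a permutation test cannot go below p = 0.333. Columns of the authors' comparisons were not used. The 34 genes and all lists were chosen with earlier results of these data known. Named genes are the 34, UGT2B17, the called genes of each additional list and the 3 ligands. CASP8, BID, RIPK1, FADD and CFLAR were named in addition, after their values were seen. The series text names LNCaP for the knockout where the sample labels name LN95, and the labels were followed.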

Additional observations from a re-analysis of the deposited data

Results flagged for a closer look

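Reads without an alignment, a measure outside the gene counts, made up at least 7.707% of the LN95(KO) libraries against 3.849% and 3.958% in LNCaP95. Their part in the differences between the groups was not tested, and the share cannot be told apart from the genotype with these libraries. With 2 libraries in each group, no group was large enough for a check of single outlying libraries.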

How the results depend on the processing

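Of the 34 genes, 5 were called, and 5 were called as well with RLE factors, library totals or either other filter on low counts. The number was 19 with no fold criterion, 3 when tested against a 2-fold change with glmTreat (EDA2R, FAS and SPATA18), and 4 with DESeq2, all 4 among the 5. Leaving out 1 library gave 4 to 5. Over all tested genes the count of 2811 became 9349 with no fold criterion and 1687 with glmTreat, and over the additional lists the 8 calls became 61 and 5. The genes among the 34 that passed the adjusted p at any fold numbered 15 to 23 in place of 19, with 3 falling in place of 5 under DESeq2 and without LN95(KO) replicate 4. The feedback median of 0.21 was 0.27 with library totals and 0.18 to 0.26 when 1 library was left out, and the median of the other effectors turned from -0.03 to 0.024 with library totals. With 1 library left out, the other effectors median was -0.054 to -0.011, that of mitochondrial apoptosis 0.039 to 0.328 and that of metabolism and redox -0.097 to 0.00095. Directions of single genes turned only in those that did not pass the test: with 1 library left out, BBC3 ranged from -0.243 to 0.0076 (above 0 without LNCaP95 replicate 1), TIGAR from -0.524 to 0.10 (0.10 without LNCaP95 replicate 1 and 0.077 without LN95(KO) replicate 3), RRM2B from -0.0373 to 0.0583 (below 0 without LN95(KO) replicate 3), and PMAIP1 from -0.0499 to 0.355 and BTG2 from -0.0182 to 0.223 (below 0 without LN95(KO) replicate 4). The cause was not tested. In 306 pairs of a gene and an alternative, 6 changed direction and 2, both TNFRSF10C, lost a call made with the fold criterion. At any fold, the adjusted p was lost in 17 pairs, of CCNG1, TNFRSF10A, TNFRSF10C, TRIAP1 and PLK2, and gained in 13 pairs of 7 genes. No paired analysis was possible because no replicate number occurs in both groups. Precision is limited by 2 libraries a group and, for EDA2R, TNFRSF10C, TIGAR, TNFSF10, CASP10, SFN and KITLG, by few reads.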
